A study of Drosophila melanogaster with 27 samples.

Results

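The genes of acetylcholine synthesis, release and breakdown and of the muscarinic receptors were followed in the heads of ageing Drosophila melanogaster. Of 7 gene symbols chosen by name, 5 (ChAT, VAChT, Ace, mAChR-A and mAChR-B) stood in the first column of the table of 11923 genes and 1, ChT, stood there under its older symbol CG7708. mAChR-C was not analysed here, which leaves 6 genes. The libraries came from female heads of the laboratory strain Oregon-R, raised on CD (the labels' name for the food) at 25 °C, with 20 heads pooled in each sample. The groups were 3 libraries from 50-day-old flies and 3 libraries from 3-day-old flies, and all 6 shared strain, sex, tissue and food. A whole head holds brain, eyes, muscle, fat body and cuticle. Diet and overexpression experiments make up the other 21 of the 27 samples of the series and were not analysed here.

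Acetylcholine is the main fast excitatory transmitter of the insect central nervous system. A cholinergic neuron takes up choline, joins it to an acetyl group, loads the product into synaptic vesicles and releases it. Acetylcholinesterase in the synaptic cleft splits it back to choline and acetate, and the choline is taken up again. Released acetylcholine acts on nicotinic receptors, which are ion channels, and on muscarinic receptors, which act through G proteins. The 6 genes fall into 3 roles: making and loading the transmitter (ChAT, VAChT, ChT), breaking it down (Ace), and sensing it through G proteins (mAChR-A, mAChR-B).

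The values are read as FPKM, which counts sequenced fragments per length of transcript and per size of library, so that levels can be set side by side between genes. The sources used here do not give the sequencing depth. Depth was estimated from genes with a single transcript and very low values. Their most frequent product of value and exon length, searched within a preset range, was taken to stand for a single fragment. That gives roughly 16000000 to 21000000 fragments per library. On that estimate the values of the 6 genes rest on about 390 fragments (mAChR-B, 50-day replicate 1) to 8000 fragments (Ace, 3-day replicate 1), too coarse for a counting interval. Values and SD below are the deposited ones. The test was limma on log2(scaled FPKM + 1), where each library was multiplied by a factor that sets the bulk of the genes equal, with Benjamini-Hochberg adjustment over 8742 genes, those averaging 1 FPKM or more. All 6 genes passed that filter.

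Of the 6 transcripts, 5 fell with age, by 0.55 to 0.85 on the log2 scale, and mAChR-A did not pass the test. By this estimate ChAT fell most, and ChT, VAChT, Ace and mAChR-B followed. The order of Ace (-0.56) and mAChR-B (-0.55) depends on the 1 FPKM added. With 0.1 FPKM added instead, mAChR-B fell more (-0.63) than Ace (-0.57). Of all tested genes, 39.1% passed the threshold of an adjusted p of 0.05, 20.8% as lower and 18.3% as higher at 50 days. Against that background 5 of 6 were lower and 0 of 6 higher. The median log2 change of the 6 was -0.62, against -0.0011 for all tested genes. Every 50-day value lay below every 3-day value in the same 5 genes, as it did in 35.3% of all tested genes.

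**Figure D1:**
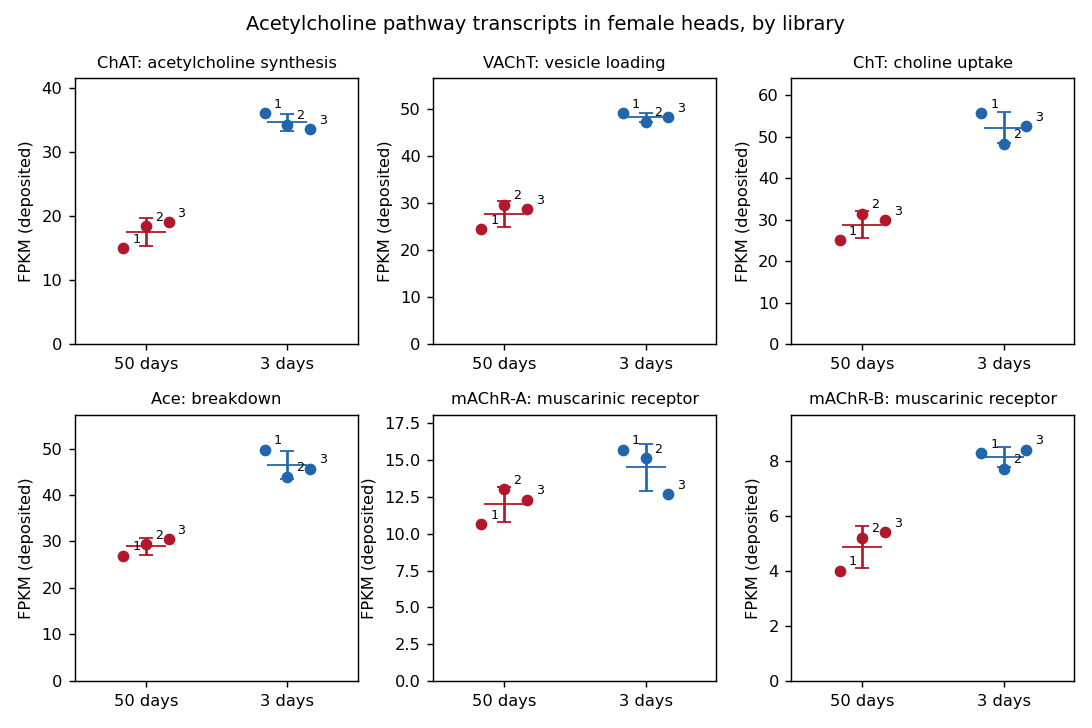
Deposited FPKM of the 6 transcripts in each library, 50-day libraries in red and 3-day libraries in blue; points are libraries with their replicate number, and bars are mean ± SD (n = 3 each). The ages are apart in 5 panels and overlap in that of mAChR-A, where 3-day replicate 3 (12.7 FPKM) lies among the 50-day libraries.

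ChAT encodes choline acetyltransferase, the enzyme that makes acetylcholine. Its level was 15.01, 18.4 and 19.05 FPKM in 50-day replicates 1 to 3, against 36.04, 34.2 and 33.5 FPKM in 3-day replicates 1 to 3. The 50-day libraries all lay far below the 3-day libraries, and 50-day replicate 1 was the lowest. The means were 17.5 ± 2.18 FPKM at 50 days and 34.6 ± 1.296 FPKM at 3 days (SD, n = 3 each). After scaling, the 50-day mean was 54.3% of the 3-day mean. It changed by -0.85 on the log2 scale (SE 0.082, 95% interval -1.04 to -0.66, limma adjusted p 0.000277), and 3.95% of tested genes had a lower change. ChAT stood above 60.4% of tested genes in level at 50 days and above 77.8% at 3 days.

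VAChT encodes the vesicular transporter that loads acetylcholine into synaptic vesicles. It was at 24.4, 29.6 and 28.7 FPKM in 50-day replicates 1 to 3, against 49.1, 47.3 and 48.2 FPKM in 3-day replicates 1 to 3. The ages did not overlap, and the 3-day libraries lay close together. VAChT averaged 27.6 ± 2.76 FPKM at 50 days and 48.2 ± 0.933 FPKM at 3 days (SD, n = 3 each), and the scaled 50-day mean was 61.5% of the scaled 3-day mean. Its log2 change was -0.68 (SE 0.076, 95% interval -0.86 to -0.51, limma adjusted p 0.000467).

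ChAT and VAChT lie in a single locus. In the BDGP6.54 annotation (Ensembl) ChAT (FBgn0000303) spans 3R:18705501-18732344 on the plus strand and VAChT (FBgn0270928) spans 3R:18705501-18718916 on the same strand. They begin at the same base and share 606 bases of exon, which is 15.1% of the exon length of ChAT and 8.54% of that of VAChT. The other 6492 exon bases of VAChT lie within introns of ChAT, and the way reads of the shared exon were assigned is not given in the sources used here. Within each library, the ratio of ChAT to VAChT in FPKM was 0.614, 0.623 and 0.664 in 50-day replicates 1 to 3, against 0.734, 0.724 and 0.695 in 3-day replicates 1 to 3. The ratio was thus lower in all 3 older libraries, by 0.18 on the log2 scale. An exact two-sided permutation test gave p = 0.1, the smallest that 3 against 3 libraries allow, and 0.183 after adjustment over 11 ratios. This exact test therefore cannot pass 0.05 for any of the ratios, whatever their size.

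ChT encodes a transporter of the sodium-coupled family that takes choline up into neurons for acetylcholine synthesis. Its level was 25.1, 31.5 and 29.9 FPKM in 50-day replicates 1 to 3, against 55.6, 48.3 and 52.5 FPKM in 3-day replicates 1 to 3. The ages did not overlap. ChT averaged 28.8 ± 3.31 FPKM at 50 days and 52.1 ± 3.70 FPKM at 3 days (SD, n = 3 each), with the scaled 50-day mean at 59.4% of the scaled 3-day mean. The log2 change was -0.73 (SE 0.092, 95% interval -0.94 to -0.52, limma adjusted p 0.000780). ChT (FBgn0038641) spans 3R:18680604-18686739 on the plus strand, and its end lies 18761 bases before the common start of ChAT and VAChT. Between them lie 4 annotated genes, CG34282, CG14300, Muc91C and a long non-coding RNA. ChT shares 3299 of its 4748 exon bases with CG46318, annotated on the same strand and not analysed here, so reads of those exons could belong to either gene. The ratio of ChT to VAChT was 1.03, 1.06 and 1.04 in the 50-day libraries, against 1.13, 1.02 and 1.09 in the 3-day libraries. These values overlapped (exact permutation p = 0.4, adjusted 0.489).

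Ace encodes acetylcholinesterase, the target of organophosphate and carbamate insecticides. It was at 26.9, 29.5 and 30.5 FPKM in 50-day replicates 1 to 3, against 49.7, 44.0 and 45.6 FPKM in 3-day replicates 1 to 3. No 50-day library reached the lowest 3-day library. Ace averaged 29.0 ± 1.84 FPKM at 50 days and 46.4 ± 2.97 FPKM at 3 days (SD, n = 3 each), and the scaled 50-day mean was 67.2% of the scaled 3-day mean. The log2 change was -0.56 (SE 0.081, 95% interval -0.74 to -0.37, limma adjusted p 0.00143). Ace (FBgn0000024, 3R:13222951-13259517, minus strand) shares no exon base with another annotated gene. The estimated fall was smaller for Ace than for ChAT, and the ratio within each library tests that difference. The ratio of Ace to ChAT was 1.80, 1.60 and 1.60 in 50-day replicates 1 to 3, against 1.38, 1.28 and 1.36 in 3-day replicates 1 to 3. All older libraries were above all younger ones, by 0.31 on the log2 scale (exact permutation p = 0.1, adjusted 0.183).

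mAChR-B, a receptor that couples to inhibitory G proteins in the fly, had 4.01, 5.21 and 5.42 FPKM in 50-day replicates 1 to 3, against 8.28, 7.73 and 8.41 FPKM in 3-day replicates 1 to 3. The ages did not overlap, and its level was the lowest of the 6 genes at both ages. It averaged 4.88 ± 0.763 FPKM at 50 days and 8.14 ± 0.363 FPKM at 3 days (SD, n = 3 each), with the scaled 50-day mean at 64.3% of the scaled 3-day mean. Its log2 change was -0.55 (SE 0.096, 95% interval -0.77 to -0.33, limma adjusted p 0.00313). The added 1 FPKM understates this change, and with a pseudocount of 0.1 it was -0.63. mAChR-B (FBgn0037546) spans 3R:8059284-8087049 on the plus strand and shares no exon base with another annotated gene.

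mAChR-A, a receptor that couples to the Gq protein and phospholipase C, was at 10.7, 13.02 and 12.3 FPKM in 50-day replicates 1 to 3, against 15.7, 15.1 and 12.7 FPKM in 3-day replicates 1 to 3. The ages overlapped, since 50-day replicate 2 was above 3-day replicate 3. It averaged 12.0 ± 1.21 FPKM at 50 days and 14.5 ± 1.60 FPKM at 3 days (SD, n = 3 each). The 95% interval of its log2 change, -0.37 to 0.066, spanned 0 around an estimate of -0.15 (SE 0.095, limma adjusted p 0.237). Without 3-day replicate 3 the change was -0.24 and passed the threshold (adjusted p 0.0486), and with each library rescaled to the same sum it was -0.42 (adjusted p 0.0432). The adjusted p ran from 0.00987 to 0.774 over 16 alternatives, and its smallest value belongs to a scaling on presynaptic genes, chosen after seeing the data, under which the change turned to 0.36. mAChR-A (FBgn0000037) spans 2R:24378630-24390294 on the minus strand, and 111 of its exon bases overlap CG13578 on the opposite strand. CG13578 had 7.14 ± 1.34 FPKM at 50 days and 11.2 ± 1.38 FPKM at 3 days (SD, n = 3 each; log2 change -0.49, limma adjusted p 0.0173). The handling of strand is not given in the sources used here, so reads from these 111 bases cannot be told apart.

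**Figure D2:**
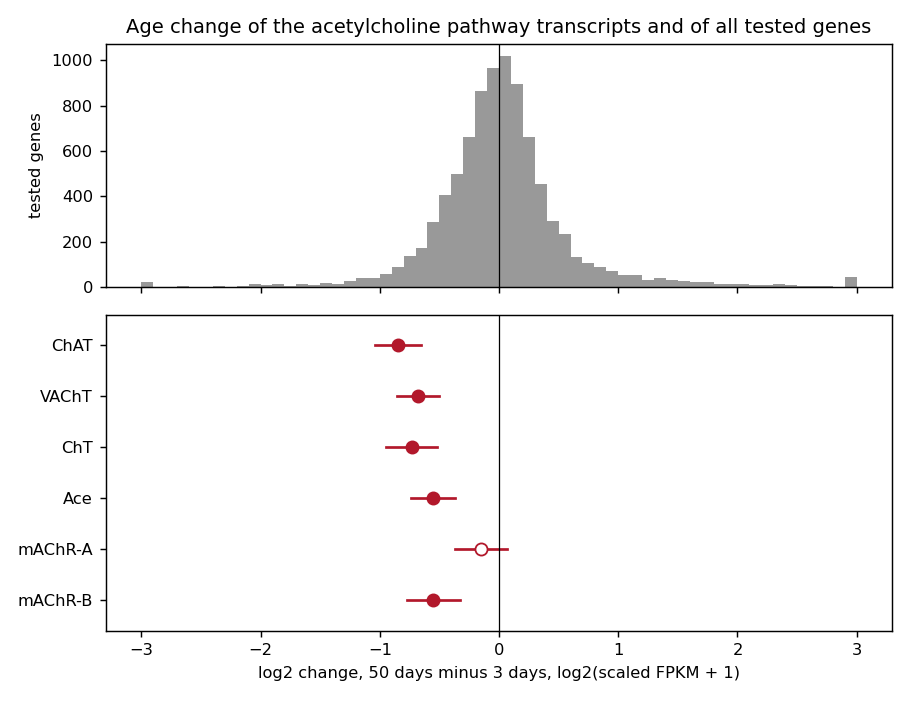
Upper panel, number of tested genes by log2 change (50 days minus 3 days, bins of equal width, with genes beyond the axis in the end bins); lower panel, log2 change of each of the 6 transcripts with its 95% interval. Filled points have a limma adjusted p under 0.05; mAChR-A at -0.15 is the open point, and ChAT at -0.85 lies farthest to the left.

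Because mAChR-A and ChAT are read in the same libraries, their ratio does not depend on scaling. The ratio of mAChR-A to ChAT was 0.710, 0.706 and 0.647 in 50-day replicates 1 to 3, against 0.436, 0.442 and 0.379 in 3-day replicates 1 to 3. All 3 older libraries were higher, by 0.72 on the log2 scale (exact permutation p = 0.1, adjusted 0.183). This rise mostly restates the fall of ChAT, which changed by -0.85, against -0.15 for mAChR-A and a median of -0.0011 for all tested genes. A gene at that median would also rise over ChAT, so the rise is not particular to mAChR-A. The share of tested genes with such a ratio was not computed. For mAChR-B over mAChR-A the ratio was 0.376, 0.401 and 0.440 in the 50-day libraries, against 0.528, 0.511 and 0.663 in the 3-day libraries. The ratio was lower in every older library, with a log2 difference of -0.48 (exact permutation p = 0.1, adjusted 0.183).

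The order of levels was led by the same 3 genes at both ages. The levels of ChT, VAChT and ChAT depend on how reads of shared exons were assigned, which is not known. At 50 days Ace (29.0 FPKM), ChT (28.8) and VAChT (27.6) overlapped in their libraries, and ChAT (17.5), mAChR-A (12.0) and mAChR-B (4.88) followed, each apart from the next. At 3 days the order was ChT (52.1 FPKM), VAChT (48.2) and Ace (46.4), with ranges that overlapped between neighbours, then ChAT (34.6), mAChR-A (14.5) and mAChR-B (8.14), again each apart from the next. In all 6 genes 50-day replicate 1 had the lowest deposited value of its age. Its scaling factor was 1.11, the highest of the 6 libraries, and after scaling it was still the lowest for 5 of the 6 genes, the exception being Ace. Leaving it out changed no call among the 6 genes.

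The fall was then set beside that of other neuronal transcripts, since RNA of a whole head cannot tell fewer cholinergic neurons from less RNA per neuron. Of all tested genes, 20.8% were lower and 18.3% higher at 50 days. A list of 14 presynaptic and pan-neuronal genes had 11 lower, 0 higher and 3 not past the test, with a median log2 change of -0.59. Among them Snap25, a membrane fusion protein of the synapse, averaged 214 ± 15.2 FPKM at 50 days and 333 ± 20.6 FPKM at 3 days (SD, n = 3 each; log2 change -0.53, limma adjusted p 0.00481). Complexin, cpx, changed by -0.72 (adjusted p 0.00194) and Rop, a Sec1/Munc18 protein of vesicle fusion, by -0.68 (adjusted p 0.00216).

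**Figure D3:**
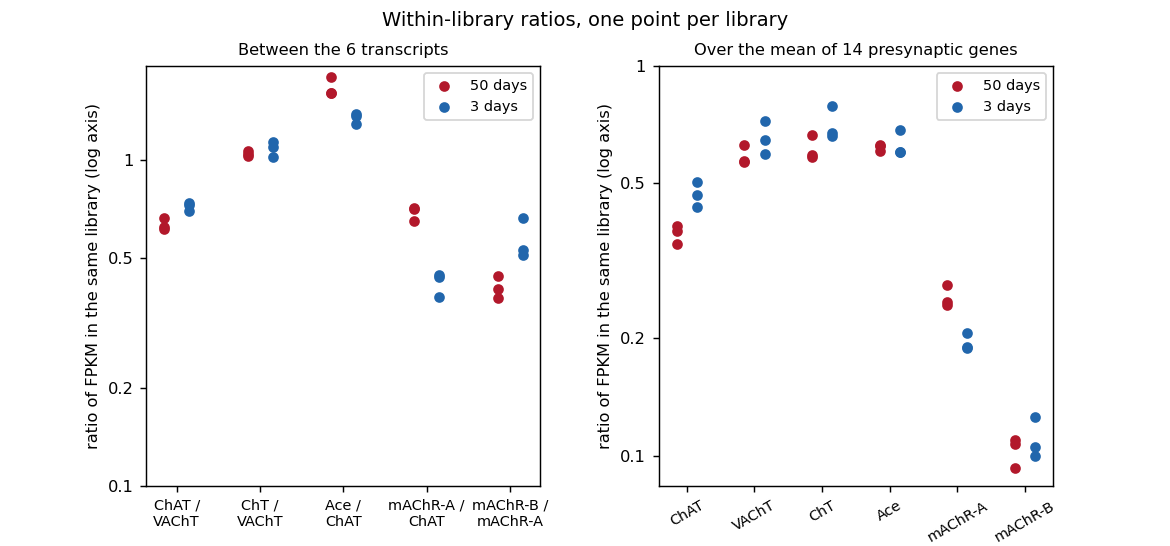
Ratios of deposited FPKM within a library, on log axes, with 50-day libraries in red left of 3-day libraries in blue and a point for each library. On the left are ratios between the 6 transcripts, where mAChR-A over ChAT is 0.647 to 0.710 at 50 days and 0.379 to 0.442 at 3 days. On the right each transcript is divided by the geometric mean of 14 presynaptic genes, where ChAT lies lower and mAChR-A higher in all 50-day libraries. A limma fit scaled on those genes called 5849 of 8750 tested genes higher.

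ChAT divided by the geometric mean of these 14 genes was 0.349, 0.389 and 0.377 in 50-day replicates 1 to 3, against 0.434, 0.467 and 0.502 in 3-day replicates 1 to 3. It was lower in all 3 older libraries, by 0.33 on the log2 scale. For mAChR-A the same ratio was 0.248, 0.274 and 0.243 at 50 days, against 0.189, 0.206 and 0.190 at 3 days, higher in all 3 older libraries by 0.39. Both had an exact permutation p of 0.1 (adjusted 0.183). The ratios of VAChT, ChT, Ace and mAChR-B to these genes overlapped between the ages, with log2 differences of -0.15, -0.20, -0.021 and -0.090. In a limma fit scaled on the 14 genes, chosen after seeing the data, ChAT was lower by 0.32 on the log2 scale (a change of -0.32, adjusted p 0.0223) and mAChR-A was higher (change 0.36, adjusted p 0.00987). In that fit VAChT (-0.15, adjusted p 0.270), ChT (-0.20, 0.161), Ace (-0.020, 0.868) and mAChR-B (-0.078, 0.556) did not pass. That scaling moves the median of all tested genes to 0.49, which is above the 0.36 of mAChR-A. Its directions are therefore relative to the neuronal genes and not to the bulk. It also turns the medians of lists given below, to 0.029 for nicotinic subunits, 0.074 for other transmitters, 0.26 for muscarinic signalling and 0.035 for relatives of acetylcholinesterase.

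Nicotinic receptor subunits, the other class of acetylcholine receptor, had 7 of 10 lower, 0 higher and 3 not past the test. Over all tested genes 20.8% were lower and 18.3% higher. The median log2 change of the 10 subunits was -0.48. nAChRbeta1, a subunit of many fly nicotinic receptors, averaged 53.1 ± 2.74 FPKM at 50 days and 110 ± 13.5 FPKM at 3 days (SD, n = 3 each; log2 change -0.92, limma adjusted p 0.000487). nAChRalpha7 changed by -0.46 (adjusted p 0.00349) and nAChRalpha6 by -0.51 (adjusted p 0.00268). nAChRbeta3 had the only positive change of the 10, at 0.39, and did not pass (adjusted p 0.115).

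Among genes for other transmitters, 7 of 12 were lower (20.8% of all tested genes), 0 higher (18.3%) and 5 not past the test. The median of the 12 was -0.40. Gat, a GABA transporter, changed by -1.19 (limma adjusted p 0.00044), Gad1, which makes GABA, by -1.47 (adjusted p 0.000117) and VGlut, the vesicular glutamate transporter, by -0.41 (adjusted p 0.00506). The fall of ChAT thus lay between those of Gad1 and VGlut, and these differences were not tested.

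Downstream of muscarinic receptors, 5 of 11 signalling genes were lower (20.8% of all tested genes), 1 was higher (18.3%) and 5 did not pass. The median of the 11 was -0.29. norpA, a phospholipase C best known from photoreceptors, changed by -0.50 (limma adjusted p 0.0164), Galphao, an inhibitory-type G protein subunit, by -0.45 (adjusted p 0.00388) and Pkc53E, a protein kinase C, by -0.37 (adjusted p 0.00715). Galphai rose by 0.30 (adjusted p 0.0214). Galphaq, the partner of mAChR-A, had a change of -0.22 and did not pass (adjusted p 0.135). Plc21C, the other phospholipase C of the list, had a change of -0.051 and did not pass (adjusted p 0.630).

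Relatives of acetylcholinesterase that act in adhesion rather than catalysis had 4 of 7 lower, 1 higher and 2 not past the test. Their median was -0.45. For this list and the next, the shares over all tested genes were 20.8% lower and 18.3% higher. Glutactin, Glt, a secreted basement membrane protein, rose to 220 ± 47.4 FPKM at 50 days, against 92.4 ± 4.89 FPKM at 3 days (SD, n = 3 each; log2 change 1.33, limma adjusted p 0.000885). Nrt, a neuronal adhesion protein, changed by -0.58 (adjusted p 0.00601) and Nlg3, a neuroligin, by -0.45 (adjusted p 0.00847). Genes of choline and phosphatidylcholine handling gave 0 of 6 lower, 1 higher and 5 not past the test, with a median of 0.081 that turned to -0.025 without further scaling and to -0.20 with libraries rescaled to the same sum. With 1 library left out it reached 0.15 without 3-day replicate 1 and 0.025 without 3-day replicate 3. The one that rose was eas, an ethanolamine kinase (0.49, adjusted p 0.00444). Of 3 transcription factors tied to cholinergic identity in the fly, ap rose (0.52, adjusted p 0.00470), while acj6 (-0.12, adjusted p 0.460) and unc-4 (-0.38, adjusted p 0.0552) did not pass. The level of unc-4 was low, at 0.837 ± 0.143 FPKM at 50 days and 1.49 ± 0.162 FPKM at 3 days (SD, n = 3 each). Its scaled 50-day mean was 60.2% of the scaled 3-day mean, and the added 1 FPKM understates this change.

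**Figure D4:**
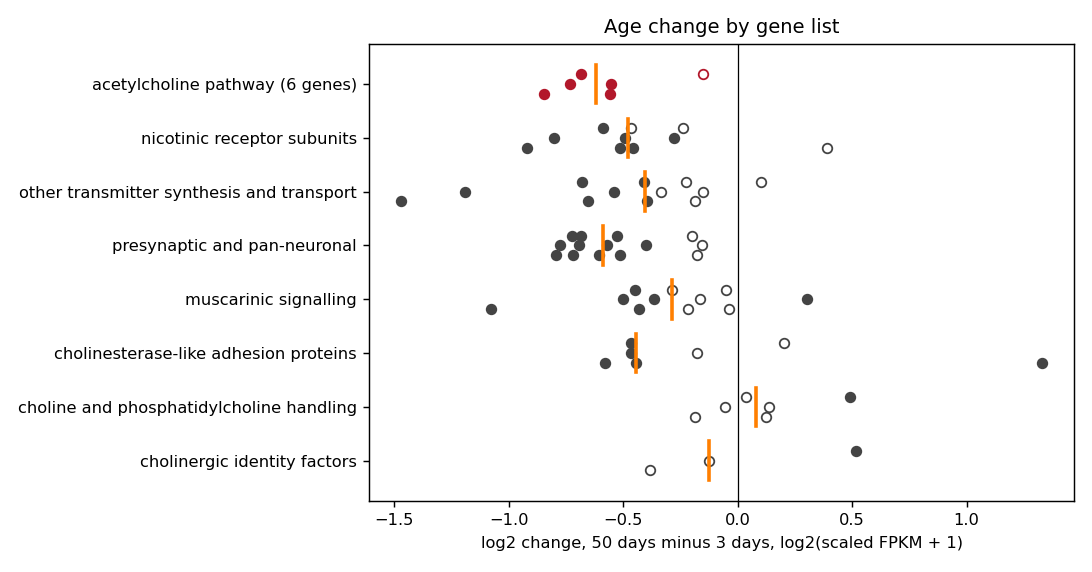
Log2 change (50 days minus 3 days) of each gene by list, with a point for each gene, filled where the limma adjusted p is under 0.05, and the list median as an orange bar. Of the 8 lists drawn, which leave out the cell type markers, the 6 acetylcholine genes (-0.62) and the presynaptic list (-0.59) have the lowest medians, and that of choline and phosphatidylcholine handling (0.081) lies right of 0 but turns negative without further scaling (-0.025) or rescaled to the same sum (-0.20).

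Markers of other cell types in a head are given beside these changes, to be read against the 39.1% of all tested genes that passed, and their part in the changes was not tested. None of the markers named was at 0 in any library. The sums are of deposited values, without scaling, and weigh the markers of highest level most. The summed level of 5 neuronal markers (elav, nSyb, Syt1, brp, para) was 260.0 to 316 FPKM at 50 days and 378 to 448 FPKM at 3 days. The highest of them, nSyb (185 FPKM at 50 days), did not pass (log2 change -0.18, limma adjusted p 0.213). Lower were elav (-0.40), Syt1 (-0.69), brp (-0.61) and para (-0.52). Glial markers had 3 of 8 lower and 2 higher, with sums of 705 to 780.3 FPKM at 50 days and 1031 to 1152 FPKM at 3 days. The members lower were Gs2 (log2 change -0.37), Eaat1 (-0.78) and nrv2 (-0.86), while wrapper (1.35) and moody (0.28) were higher and repo, which marks most glia, did not pass (-0.035, limma adjusted p 0.735). Photoreceptor markers had 3 of 6 lower and 0 higher, with sums of 16542 to 21273 FPKM at 50 days and 20485 to 23812 FPKM at 3 days. Muscle markers had 3 of 4 lower and 0 higher (106 to 132 FPKM at 50 days, 290.4 to 472 FPKM at 3 days). Fat body markers had 0 of 6 lower and 5 higher (36554 to 62250 FPKM at 50 days, 13208 to 29229 FPKM at 3 days), and 0 of 4 hemocyte markers passed the test in limma (25.2 to 40.4 FPKM at 50 days, 15.6 to 28.5 FPKM at 3 days). At an unadjusted limma p under 0.05, each count of 0 given for a list here and above was again 0, except that 1 of the 4 hemocyte markers was higher.

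The genes whose pattern over the 6 libraries was most like that of ChAT, by Pearson's r of log2(scaled FPKM + 1), were Tace (r 0.9996), CG8500 (0.9996), CG8177 (0.9989), Men-b (0.9987) and dpr11 (0.9986). Tace encodes a membrane metalloprotease, Men-b a malic enzyme and dpr11 a neuronal surface receptor. With 6 libraries that fall into 2 ages such values are common, and 909 tested genes (10.4%) had an r above 0.95. Among the other 5 acetylcholine genes r with ChAT was 0.996 for VAChT, 0.988 for ChT, 0.983 for Ace, 0.982 for mAChR-B and 0.689 for mAChR-A. These values share the same libraries and scaling and are given as a description.

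**Figure D5:**
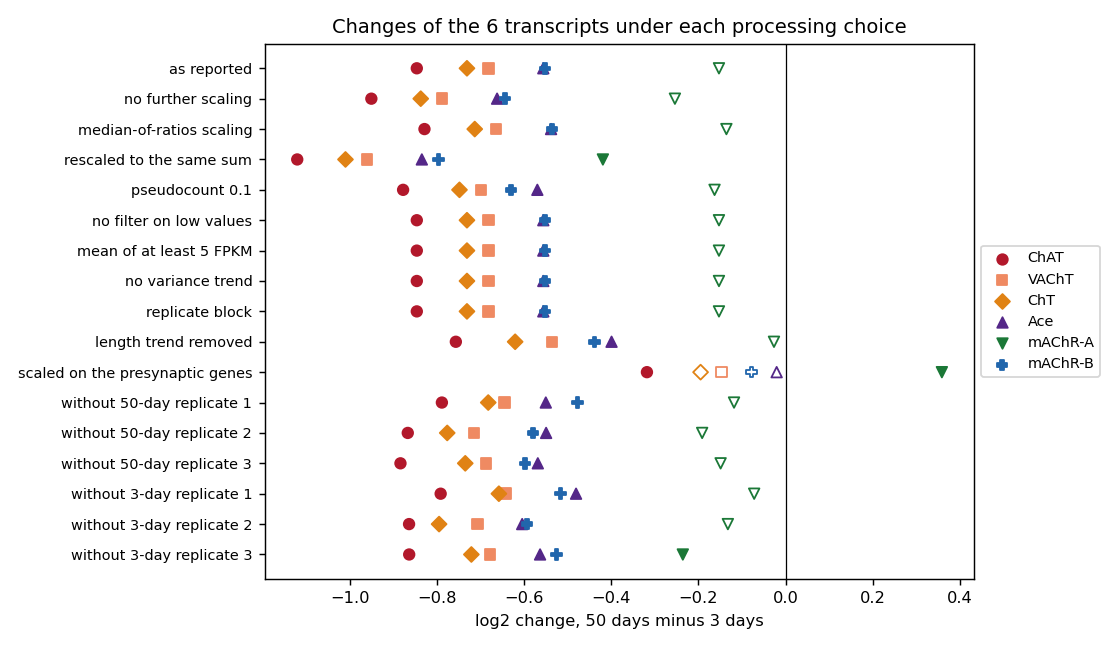
Log2 change (50 days minus 3 days) of the 6 transcripts under the processing reported and 16 alternatives, with filled symbols where the limma adjusted p is under 0.05. The symbols of ChAT stay filled throughout, and mAChR-A is filled on 3 lines, of which the line scaled on the presynaptic genes lies right of 0 at 0.36.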

How the data were processed

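The deposited table is named as counts, but its values are not whole and are read here as FPKM, scaled by the authors before they deposited them. Column sums ran from 427992 to 539645. A reading as TPM would change absolute levels but not the scaled folds. Per the submitters' processing notes, fastp, HISAT2 and HTSeq were used with BDGP6, with no role given. The step that scaled the values is not given in the sources used here. All 6 columns matched library names in the labels, and 0 were left over. The members and gene lists were chosen with earlier results of these data known.

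Libraries were scaled by trimmed-mean factors (0.948 to 1.11) computed over genes above 1 FPKM, with 30% of ratios and 5% of levels trimmed from each end. Genes averaging 1 FPKM or more were fitted as log2(FPKM + 1) with limma 3.58.1 in R 4.3.3 (lmFit, eBayes with trend, age only). The p-values were adjusted by Benjamini-Hochberg over 8742 genes. The fit was also run on simulated data in which few genes changed. That run does not test the scaling or the calls where many genes change, as they do here. Ratios within a library used deposited values and exact permutation tests (scipy 1.17.1). The labels name biological triplicates and no separate cultures, so p-values measure the spread between these samples.

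List genes were named by the highest mean level among those past the test, and the genes like ChAT by the highest 5 values of r. CG13578, nAChRbeta3, Galphai, Galphaq, Plc21C, acj6 and unc-4 were named after their values were seen. Symbols were matched to BDGP6.54 (10896 directly, 983 by synonym, 44 not at all). Alternatives were other scalings, pseudocounts, filters, no trend, a replicate block, removal of each library's trend on exon length, and leaving out each library. Scaling on the presynaptic genes was added after seeing the data.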

Additional observations from a re-analysis of the deposited data

How the results depend on the processing

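ChAT was lower and past the threshold in all 16 alternatives, from -1.12 to -0.32. VAChT, ChT, Ace and mAChR-B kept their direction and call in 15 of 16 each. The exception was scaling on the presynaptic genes, chosen after seeing the data, with changes of -0.15 for VAChT, -0.20 for ChT, -0.020 for Ace and -0.078 for mAChR-B. That scaling turned mAChR-A to 0.36 and called 6178 genes, 5849 of them higher, because it moves the median of all genes to 0.49. mAChR-A also passed the threshold when libraries were rescaled to the same sum (-0.42), and with 1 library left out it ran from -0.24 to -0.072. The number of genes called was 3418 as reported. It ran from 2619 to 3718 with 1 library left out. Without further scaling 1138 of 3409 calls were higher, and after rescaling to the same sum 734 of 3859, with the median of all genes at -0.098 and -0.26.

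With the replicate number as a block, 2703 genes were called and no call among the 6 genes changed. Deviations of same-numbered libraries from their age means correlated at -0.21, -0.10 and -0.24 over the tested genes. These values give no sign that the numbers pair the samples, but cannot exclude a shared batch. Of 112 recomputed list medians, 29 moved by at least 1 SD between replicates, 14 of them downwards. Sequencing depth is known only roughly and limits mAChR-B most.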
